A study of Mus musculus with 10 samples.

Results

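Vgf, the granins and the genes whose products process prohormones were measured in mouse sarcomas. The 10 genes were Vgf, Chga, Chgb, Scg2, Scg3, Scg5, Pcsk1, Pcsk2, Cpe and Pcsk1n, listed by name among the 56750 features of a deposited count table, and all 10 were found and passed the filter on low counts. They were selected on earlier results of these tumors, so their differences between the models are given as a description with no p-value. The dFLEx group consisted of 3 tumors (170019, 170024 and 170025) of the genotype dFLEx CDS +/-, in which a CIC::DUX4 fusion with an HA tag, knocked into Rosa26, is expressed only after recombination by both Cre and FLPE; plasmids for the recombinases were electroporated into the hind limb muscle. The KP group consisted of 2 tumors (3800 and 3802) of the KP model, which carries conditional loss of p53 (p53fl/fl), and the site and manner in which these were induced were not given in the sources used here. The labels name no age or sex. RNA of each tumor was split into duplicates, each sequenced as a library depleted of ribosomal RNA. Of 10 labelled libraries, 9 had a column in the count table used here; tumor 3802 entered with its first library alone, and its second was not analysed here. The 9 libraries held between 20503474 and 46302223 counts.

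VGF and the granins are acidic proteins that enter the regulated secretory pathway of endocrine cells and neurons, where they are packed into dense-core vesicles with hormones and neuropeptides. Many are themselves precursors. Prohormone convertases 1/3 and 2, made from Pcsk1 and Pcsk2, cut such precursors after pairs of basic residues, carboxypeptidase E then trims the exposed basic residues, and the small proteins 7B2 (from Scg5) and proSAAS (from Pcsk1n) assist or restrain the convertases. Vgf is a nerve growth factor-inducible gene, and CIC is a transcriptional repressor that binds a short octamer in DNA, which the CIC::DUX4 fusion uses to activate genes.

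The stretch before the Vgf transcript start is shown because it holds matches to that octamer. The 250 bases lie at chr5:137058880-137059129 (GRCm39, plus strand), before the start of the canonical GENCODE transcript, inside the longer span that the deposited table gives for the gene. They are printed 5′ to 3′, with matches to the capicua octamer or to the cAMP response element in capitals.
Vgf: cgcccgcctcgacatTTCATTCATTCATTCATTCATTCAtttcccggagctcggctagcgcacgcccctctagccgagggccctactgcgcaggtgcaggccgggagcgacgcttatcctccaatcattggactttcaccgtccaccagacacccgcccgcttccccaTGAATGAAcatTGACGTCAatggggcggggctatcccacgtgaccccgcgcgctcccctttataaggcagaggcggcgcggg

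The octamers searched on both strands were TGAATGAA, TGAATGGA, TCAATGAA and TCAATGGA, in windows from 250 bases before to 50 bases after the start of 21770 protein-coding genes. Vgf had 6 matches, all to TGAATGAA. Of these, 5 overlapped one another as a run of repeats on the opposite strand, with first bases at -235, -231, -227, -223 and -219 from the start, and 1 lay on the same strand at -82. An octamer was present in 3.65% of all promoter windows and TGAATGAA in 1.39%; the other octamers were found in 1.14%, 0.717% and 0.579%. At least 6 matches were counted in 4 of the 21770 windows (0.0184%). None of the other 9 genes had a match in its window.

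The cAMP response element TGACGTCA was found in 2.44% of windows and in 3 of the 10 genes. In the dFLEx tumors Vgf stood orders of magnitude above Scg2 and Pcsk1, and any part of the element in this was not tested. The 3 stretches are shown with 10 bases on either side, the element in capitals.
Vgf: gaatgaacatTGACGTCAatggggcggg
Scg2: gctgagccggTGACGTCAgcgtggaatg
Pcsk1: caggtagatcTGACGTCAagagatggct
They lie at chr5:137059049-137059076 on the plus strand, chr1:79417794-79417821 on the minus strand and chr13:75237888-75237915 on the plus strand (GRCm39). The element begins 71 bases before the start of Vgf and 47 bases before that of Pcsk1, and at base 27 of the Scg2 transcript. An octamer and this element occurred together in 14 of the 21770 windows (0.0643%). A match is a description of letters, and binding was not measured in these samples.

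**Figure D1:**
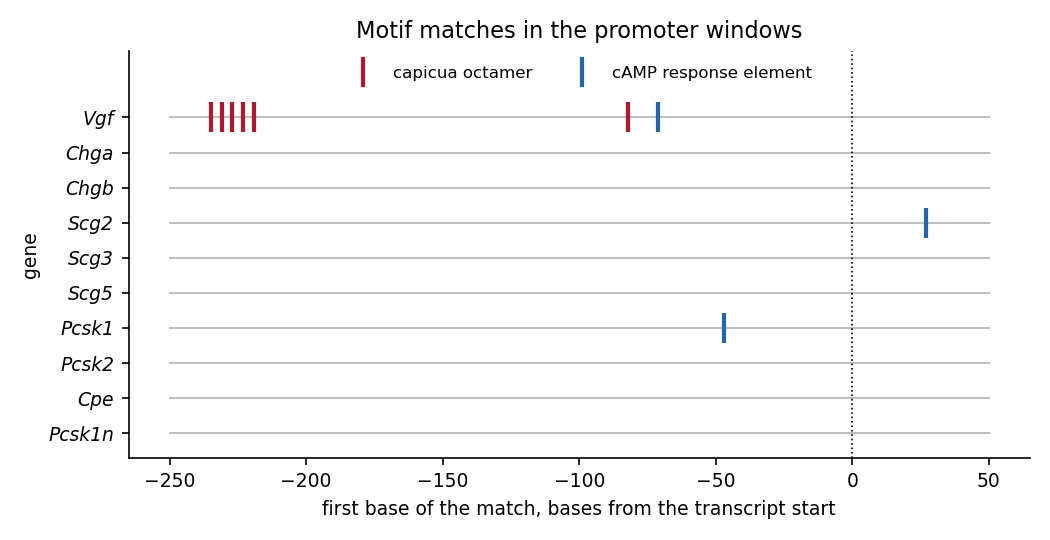
Matches to the capicua octamers (red) and the cAMP response element (blue) on either strand in the promoter windows of the 10 genes; the horizontal axis is the distance in bases of the first base of a match from the transcript start (dotted line). The 6 octamer matches lie in Vgf, and the element is present in Vgf, Scg2 and Pcsk1.

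The transgene was checked first. The CIC_DUX4 feature had 2212 and 2026 counts in the libraries of 170019, 6229 and 5394 in 170024, and 18828 and 14772 in 170025. In the KP tumors it had 0 counts in both libraries of 3800 and 6 in 3802. The feature for the HA tag had between 36 and 793 counts in the dFLEx libraries and 0 in each KP library. As TMM-scaled CPM (counts over a common library total, with the duplicates of a tumor summed), CIC_DUX4 stood at 105, 201 and 423 in tumors 170019, 170024 and 170025.

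Vgf was the most abundant feature by counts in each of the 6 dFLEx libraries. It took 2.93% and 3.07% of all counts in 170019 (Wilson 95% confidence intervals 2.93 to 2.94% and 3.06 to 3.08%, counting error only), 3.80% and 4.23% in 170024, and 4.18% and 4.50% in 170025. In the KP libraries its share was 0.00103% and 0.00084% in 3800 and 0.00277% in 3802, where it ranked 9906, 10363 and 4999 by counts. Per kilobase of exon, a scale on which genes can be compared, Vgf ranked 2 and 3 in the libraries of 170019 and 1 in the other dFLEx libraries.

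The Vgf level was 35369, 41887 and 44598 CPM in 170019, 170024 and 170025, and 8.64 and 23.0 CPM in 3800 and 3802. All dFLEx tumors lay far above both KP tumors, and the lowest dFLEx level was 1534-fold the highest KP level. The mean was 40618 ± 4744 CPM (SD, n = 3) in dFLEx against 15.8 ± 10.2 CPM (SD, n = 2) in KP, and the fitted difference was 11.33 on the log2 scale (SE 0.92). Over the 15 alternative fits this difference ran from 10.90 to 12.22. Vgf was the 1 of the 10 genes past the adjusted threshold in the fit over all features, where 0.182% of 24743 tested genes were called; since the genes were chosen on this contrast, nothing is read from that count. Without tumor 170019 or 170024, the fit called 0 of all genes (1939 and 1414 at an unadjusted p under 0.05), Vgf included, and Vgf also missed the threshold with upper-quartile scaling.

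KP levels of Vgf were low but not at the limit of detection, with 300 and 344 counts in the libraries of 3800 and 568 in 3802. They amounted to 0.0213% and 0.0567% of the dFLEx mean level. The transgene, which KP mice do not carry, reached 0.100% of its dFLEx mean level in 3802; in 3800 it had no counts, and 3 counts would have been 0.0166%. Whether reads of dFLEx libraries passed into KP libraries was not tested.

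**Figure D2:**
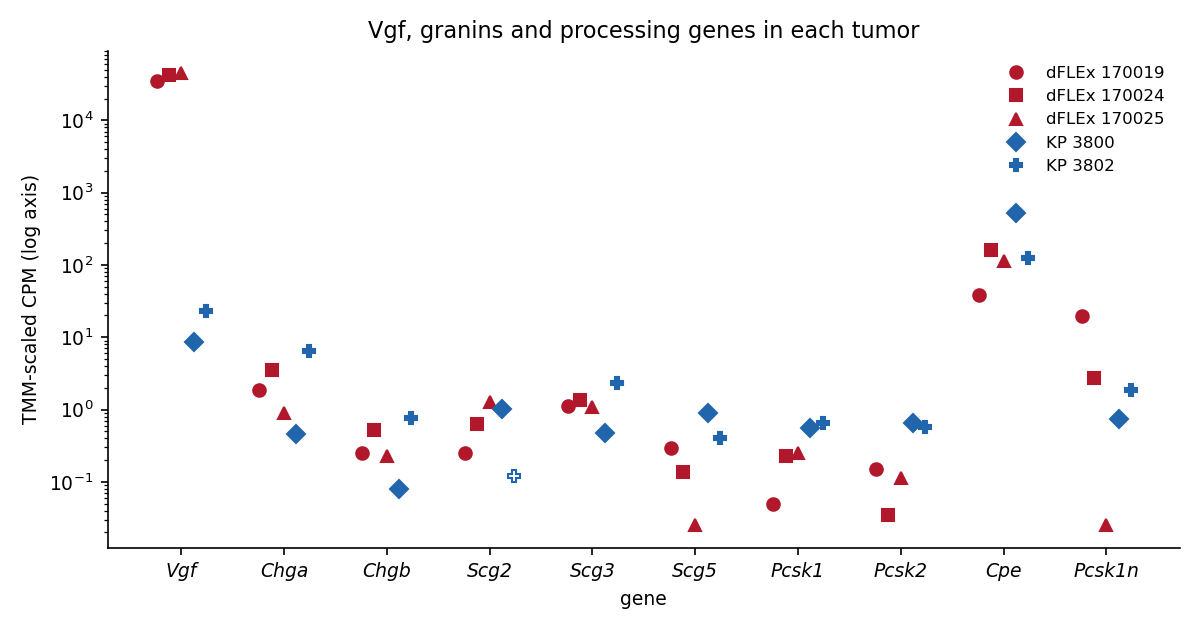
TMM-scaled CPM on a log axis for the 10 genes in each tumor, dFLEx in red and KP in blue; the open symbol is Scg2 in 3802, which had 0 counts and is drawn at the level of 3 counts. Vgf in the 3 dFLEx tumors stands between 35369 and 44598 CPM, while the other genes stay at or below 162 CPM in dFLEx.

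In the dFLEx tumors no other granin was at a level comparable to Vgf, while in 3802 Vgf and Chga were closer, at 7.75 and 2.36 CPM per kb of exon. Chga, which encodes chromogranin A, a core protein of endocrine vesicles, was at 1.89, 3.53 and 0.906 CPM in the dFLEx tumors (in the order 170019, 170024, 170025, kept below) and at 0.456 and 6.49 CPM in 3800 and 3802. The KP tumors enclosed the dFLEx range on both sides, and the difference of -0.71 on the log2 scale (SE 1.10) turned to 2.22 without 3802. Scg3, which encodes secretogranin III, a membrane-bound partner of chromogranin A, was at 1.12, 1.35 and 1.08 CPM in dFLEx and 0.470 and 2.35 CPM in KP. Here too the dFLEx tumors fell between the KP tumors, with a difference of -0.24 (SE 0.95) that became 1.35 without 3802.

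Chgb and Scg2, which encode chromogranin B and secretogranin II (the precursor of secretoneurin), were close to the limit of counting. Chgb had a level of 0.248, 0.519 and 0.226 CPM in dFLEx and 0.0805 and 0.771 CPM in KP, from 0 to 24 counts a library; the groups overlapped and the log2 difference of -0.34 (SE 1.45) became 2.03 without 3802. Scg2 had a level of 0.248, 0.623 and 1.27 CPM in dFLEx and 1.02 CPM in 3800, and 0 counts in 3802. Its limit there was 0.146 CPM by the raw library total, without the TMM scaling of the other levels. Its groups overlapped as well, and the log2 difference of 0.46 (SE 1.65) was -0.49 without 3802 and -0.23 without 170025. Without 3800, with the 0 counts of 3802 alone standing for KP, it was 8.21. The 4 granins other than Vgf summed to 3.50, 6.03 and 3.48 CPM in dFLEx and to 2.03 and 9.62 CPM in KP.

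Transcripts of the prohormone convertases and of 7B2 were scarce in every tumor, and in each dFLEx tumor they were below both KP tumors. Pcsk1 was at 0.0497, 0.225 and 0.252 CPM in dFLEx and 0.563 and 0.649 CPM in KP. Pcsk2 was at 0.149, 0.0346 and 0.113 CPM in dFLEx and 0.657 and 0.568 CPM in KP. Scg5, whose product 7B2 is needed for prohormone convertase 2 to mature, was at 0.298, 0.139 and 0.0252 CPM in dFLEx and 0.899 and 0.406 CPM in KP. For each of these 3 genes every dFLEx tumor lay below every KP tumor, a pattern seen in 11.7% of all tested genes, while the reverse held in 13.7%; Vgf was the 1 gene of the 10 with the latter pattern. The log2 differences were -1.76 (SE 1.35) for Pcsk1, -2.61 (SE 1.40) for Pcsk2 and -2.09 (SE 1.46) for Scg5, and all stayed below 0 in the 15 alternatives. They rest on few counts, at most 22 a library for Pcsk1, 34 for Pcsk2 and 42 for Scg5.

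These low levels were set against a background measured the same way, the summed counts of 1545 olfactory and vomeronasal receptor genes, which are made mainly by sensory neurons of the nose. Per kilobase of exon, the receptors stood at 0.0239, 0.0151 and 0.00278 CPM in dFLEx and at 0.00602 and 0.106 CPM in 3800 and 3802. Pcsk1 reached 0.371 times this background in 170019, 2.67 times in 170024, 16.2 times in 170025, 16.7 times in 3800 and 1.09 times in 3802. Pcsk2 reached 0.788, 0.291 and 5.15 times in dFLEx, 13.8 times in 3800 and 0.674 times in 3802. Scg5 was above the background in every tumor, at 7.94, 5.86 and 5.77 times in dFLEx, 95.2 times in 3800 and 2.43 times in 3802. Tumor 3802, with the highest receptor background and the most features with a count (36904), therefore had convertase levels no higher than 1.09 times its background; whether those counts came from the genes was not tested.

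Cpe, which encodes carboxypeptidase E, was the only one of the 9 genes other than Vgf with a level above 20 CPM in any tumor. It stood at 38.6, 162 and 112 CPM in dFLEx and 525 and 124 CPM in 3800 and 3802. Tumor 3800 was highest and 170019 lowest, and 3802 lay within the dFLEx range. The log2 difference of -1.64 (SE 0.81) was -0.08 without 3800 and -2.32 without 3802. The summed level of the neuron marker list (6 genes) was also highest in 3800, at 441 CPM against 102 CPM in 3802 and 42.1 to 97.7 CPM in dFLEx. Most of the sum in 3800 came from Stmn2 (279 CPM) and Map2 (104 CPM), and Tubb3 was also highest there (27.1 CPM). Rbfox3 was lowest in 3800, at 0.0805 CPM against 2.57 to 5.68 CPM elsewhere. Elavl4 was at 0.148 CPM in 3800 and 2.15 CPM in 3802, and Gap43 in 3800 (30.3 CPM) lay within the dFLEx range. Of the 6 genes, 0 were at 0 in all tumors, and 4 were lower in dFLEx by the sign of the difference, 0 past the threshold. The part of the neuron list in the Cpe levels was not tested.

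Pcsk1n, which encodes proSAAS, an inhibitor of prohormone convertase 1/3, varied more among dFLEx tumors than between the models. It stood at 20.0, 2.74 and 0.0252 CPM in dFLEx and 0.751 and 1.87 CPM in KP, and the highest dFLEx tumor was 794-fold above the lowest. The lowest value rests on 2 counts in the 2 libraries of 170025, against 390 and 414 counts in those of 170019. The log2 difference between the models, 2.54 (SE 1.87), was 0.02 without 170019. Its annotated span overlaps that of Eras on the opposite strand by 135 bases. The spans of 3 other members, introns included, also overlap genes on the opposite strand: Pcsk2 overlaps Pcsk2os1 by 1765 bases and Pcsk2os2 by 48383, Chgb overlaps Gm74864 by 1101, and Scg3 overlaps Gm68716 by 2017 and Gm37871 by 688. Since the counting ignored strand, reads of an antisense partner over an exon of these genes cannot be told apart from their own, and reads where exons of both overlap were not counted.

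The tumors of 1 model were then compared with each other, a test that did not use the contrast by which the genes were chosen. It asks whether RNAs differed by more than duplicate libraries of the same RNA, with edgeR's quasi-likelihood test and Benjamini-Hochberg adjustment over all genes. Among the dFLEx tumors 5 of the 10 genes differed (Pcsk1n, Cpe, Vgf, Chga and Scg2), against 56.9% of all 27932 genes. Pcsk1n and Cpe had the smallest adjusted p-values, 9.22e-44 and 1.70e-43, followed by Vgf (6.01e-07), Chga (2.41e-06) and Scg2 (0.0143); the others were between 0.0555 and 0.776. DESeq2's likelihood ratio test called 3 of the 10, Pcsk1n, Cpe and Chga. The call for Vgf, over a range of 1.26-fold, was thus made by edgeR and not by DESeq2. Scg2 was not called without the first library of 170025, and Scg5 was called without the first library of 170024.

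Vgf was nonetheless among the steadier genes in dFLEx tumors. The coefficient of variation over the 3 tumors was 11.7% for Vgf, and 6.80% of 15260 genes (mean level 1 CPM or more) had a lower one, the median being 44.3%. Of the other members in that set, Scg3 had 12.3%, Cpe 59.7%, Chga 62.9% and Pcsk1n 143%. Duplicate libraries of a tumor varied by 3.82% to 8.54% for Vgf in dFLEx. Transgene levels ran from 105 to 423 CPM across the same tumors, and Vgf had the same order of tumors (170019, 170024, 170025) within its narrower range; 3 tumors allow no test of a relation.

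**Figure D3:**
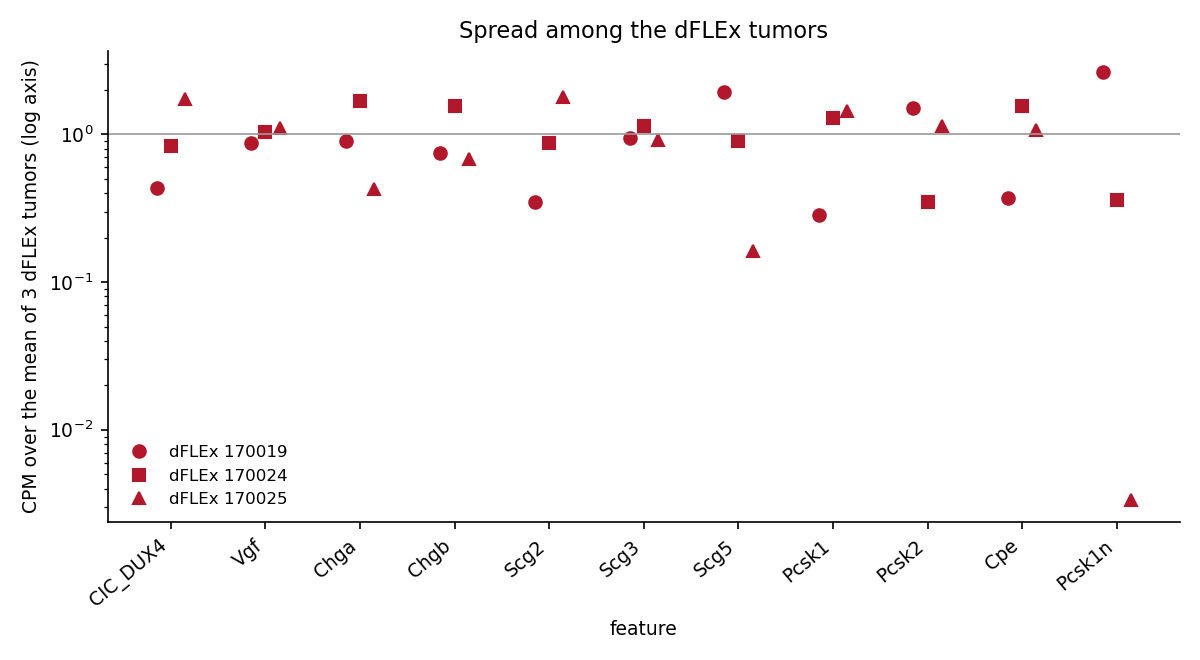
Level of the CIC_DUX4 feature and of the 10 genes in each dFLEx tumor, divided by the mean of the 3 tumors, on a log axis; the line marks the mean. Vgf and Scg3 stay near the line, with coefficients of variation of 11.7% and 12.3%, and Pcsk1n spreads over 794-fold. Duplicate libraries varied by 3.82% to 8.54% for Vgf and by 8.13% to 32.6% for Scg3.

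Between the KP tumors 7 of the 10 genes differed, against 68.2% of all genes. Vgf was higher in 3802 than in 3800 by a log2 difference of 1.42 (SE 0.07, adjusted p = 2.40e-36), as were Chga by 3.85 (SE 0.43, adjusted p = 4.93e-14), Chgb by 3.29 (adjusted p = 0.0245), Scg3 by 2.24 (adjusted p = 0.00101) and Pcsk1n by 1.32 (adjusted p = 0.00193). Cpe was lower in 3802, with a log2 difference of -2.07 (SE 0.11, adjusted p = 1.58e-35), and Scg2 was at 0 counts there (adjusted p = 0.000162). The call for Chgb was lost without the first library of 3800 and that for Scg3 without the second. With 1 library from 3802, its duplicate spread was assumed to equal that of the other tumors. The receptor background also differed, at 0.106 CPM per kb of exon in 3802 and 0.00602 in 3800. Over this background the genes higher in 3802 stood lower there than in 3800. Vgf was at 72.8 times in 3802 and 483 times in 3800, Chga at 22.1 and 27.5, and Chgb at 2.64 and 4.88. Scg3 was at 8.07 and 28.5 times, and Pcsk1n at 7.99 and 56.9. The part of the background in these differences was not tested.

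The balance of precursor and enzyme was compared per kilobase of exon. Vgf stood at 11897, 14089 and 15001 CPM per kb in dFLEx and at 2.91 and 7.75 CPM per kb in KP. The summed level of Pcsk1 and Pcsk2 was 0.0277, 0.0445 and 0.0592 CPM per kb in dFLEx and 0.184 and 0.188 CPM per kb in KP. Cpe was at 14.8, 62.3 and 43.0 CPM per kb in dFLEx, so that Vgf exceeded Cpe 804-fold, 226-fold and 349-fold; in KP it was 0.0144 and 0.164 times Cpe. Transcript ratios say nothing of protein or of cleavage.

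Other proprotein convertases were present at higher levels. Furin, the convertase of the constitutive pathway, was at 7.24, 10.5 and 21.5 CPM per kb in dFLEx and 14.6 and 6.22 CPM per kb in KP, with overlapping groups. Mbtps1, the site-1 protease that activates sterol regulators, overlapped as well, at 4.74, 7.06 and 15.6 CPM per kb in dFLEx and 25.0 and 4.93 CPM per kb in KP. Both KP tumors were exceeded in every dFLEx tumor by Pcsk5 (21.2, 23.8 and 61.0 against 5.03 and 7.63 CPM; log2 difference 2.48, SE 0.76, adjusted p = 0.262) and by Pcsk6 (3.85, 8.35 and 61.4 against 3.73 and 1.66 CPM; 3.18, SE 1.29, adjusted p = 0.428), neither past the threshold. Pcsk4 also lay above both KP tumors in every dFLEx tumor, at 7.93, 7.27 and 6.68 against 1.42 and 3.65 CPM. Of the 7 convertase genes in the list, 3 had every dFLEx tumor above KP and 0 below. These patterns were seen in 13.7% and 11.7% of all tested genes. None of the 7 was called. At an unadjusted p under 0.05, 2 were higher and 0 lower, beside 5.65% and 4.93% of all tested genes. A positive difference was seen for 4 and a negative one for 3, and the median was 0.33, beside -0.18 over all tested genes.

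**Figure D4:**
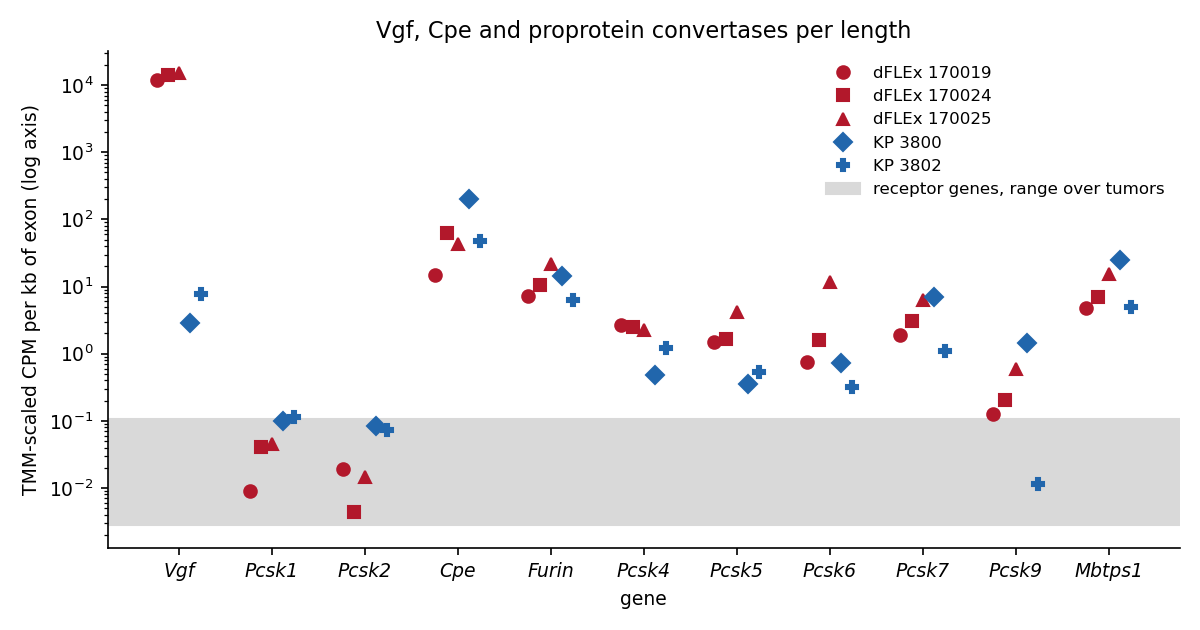
TMM-scaled CPM per kilobase of exon on a log axis for Vgf, Pcsk1, Pcsk2, Cpe and the 7 other proprotein convertase genes in each tumor; the grey band is the range over tumors of the olfactory and vomeronasal receptor genes. Pcsk1 and Pcsk2 lie in or just above the band, while Furin lies between 6.22 and 21.5 CPM per kb.

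Among 111 further genes of the secretory and peptide pathway in 7 lists, 93 were tested, 46 with a positive and 47 with a negative difference, and 1 was called, beside 0.182% of all tested genes. At an unadjusted p under 0.05 there were 21 higher and 10 lower among the 93, beside 5.65% higher and 4.93% lower (10.6% in all) over all tested genes; the lists were drawn up with earlier results of these tumors known. The gene called was Cpxm2, a carboxypeptidase-like protein of the Cpe family that is held to lack enzymatic activity, which rose in dFLEx: it was at 202, 203 and 204 CPM in dFLEx and 7.58 and 7.99 CPM in KP, a log2 difference of 4.70 (SE 0.63, adjusted p = 0.0480, edgeR). The dFLEx tumors were nearly equal and all above both KP tumors. The call was lost when any of 170019, 170024, 170025 or 3800 was left out, and with library totals in place of TMM. DESeq2 on tumor sums, in contrast, called 22 of the 111 genes, 14 higher and 8 lower. Over all 56750 features the same fit called 1396, 794 higher and 602 lower. The carboxypeptidase and peptide-finishing list held 11 genes with a median of 0.58, 3 with every dFLEx tumor above KP and 1 below (13.7% and 11.7% of all tested genes), and 3 higher and 2 lower at an unadjusted p under 0.05.

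The vesicle machinery gave no call in either direction (0 of 25; 6 higher and 2 lower at an unadjusted p under 0.05, beside 10.6% of all tested genes in either direction, median 0.15). Every dFLEx tumor was above KP for 9 of the 25 and below KP for 5, beside 13.7% and 11.7% of all tested genes. Vamp2, a vesicle SNARE, was at 78.1, 79.7 and 83.9 CPM in dFLEx and 42.6 and 34.7 CPM in KP (log2 difference 1.06, SE 0.54, adjusted p = 0.596). Dnajc5, a vesicle chaperone, overlapped between the groups (log2 difference 0.47, SE 0.72). Ptprn, whose product IA-2 spans the membrane of dense-core vesicles, showed the opposite arrangement to Vgf, with 4.84, 3.62 and 11.3 CPM in dFLEx below 193 and 84.7 CPM in KP (log2 difference -4.40, SE 0.75, adjusted p = 0.0840).

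Other peptide precursors were called in 0 of 24 tested genes, of 39 listed, with 8 higher and 5 lower at an unadjusted p under 0.05, beside 10.6% of all tested genes in either direction; 19 of the 39 stayed under 1 CPM in all tumors. Penk, the enkephalin precursor, was at 944, 285 and 102 CPM in dFLEx and 87.4 and 35.7 CPM in KP, all dFLEx tumors above KP (log2 difference 2.85, SE 1.03, adjusted p = 0.369). Tumor 170019 was highest for Penk, as for Pcsk1n. Adm, the precursor of the vasodilator adrenomedullin, was at 24.3, 33.0 and 45.7 CPM in dFLEx and 6.39 and 7.14 CPM in KP (log2 difference 2.34, SE 0.64, adjusted p = 0.209). Pthlh, which encodes parathyroid hormone-related protein, overlapped between the groups, with 259 CPM in 170019 and 20.0 to 71.1 CPM elsewhere. Grp, the precursor of gastrin-releasing peptide, was near 0 in dFLEx, at 0.0497, 0.0173 and 0.0252 CPM, and at 19.9 and 0.649 CPM in 3800 and 3802 (log2 difference -8.36, SE 1.51, adjusted p = 0.0920).

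Markers of neuroendocrine cells were low or overlapped in most cases. Of 13 such genes, 10 were tested and 0 called (0 also at an unadjusted p under 0.05), 8 of the 10 had a negative difference, and the median was -1.20. The neuroendocrine transcription factors Neurod1 and Insm1 were at or below 0.243 CPM in all 5 tumors. Uchl1, a neuronal ubiquitin hydrolase, was at 78.5, 64.8 and 9.12 CPM in dFLEx, below 210 and 131 CPM in KP (log2 difference -1.75, SE 0.85). Ncam1, an adhesion molecule also made by muscle and mesenchymal cells, was at 134, 172 and 166 CPM in dFLEx and 94.8 and 98.0 CPM in KP (log2 difference 0.71, SE 0.52). Eno2, the neuronal enolase, was low in every tumor, between 2.40 and 5.03 CPM, and Isl1, a LIM homeobox factor, was between 0.161 and 4.67 CPM with overlapping groups. The lists do not say which cells held the RNA, and in these bulk samples fewer cells of a type and less RNA per cell cannot be told apart.

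REST, a repressor of many neuronal and secretory genes, was measured with its cofactors. Rest was at 32.7, 57.1 and 82.0 CPM in dFLEx and 65.1 and 39.0 CPM in KP, with overlapping groups and a log2 difference of 0.14 (SE 0.62). Of the 9 genes of the list 0 were called. At an unadjusted p under 0.05, 1 was higher and 0 lower, beside 5.65% and 4.93% of all tested genes. Hdac1, Hdac2 and Kdm1a, which encode chromatin-modifying enzymes of the REST complex, overlapped between the groups, with log2 differences of 0.43 (SE 0.68), 0.42 (SE 0.64) and -0.17 (SE 0.54). Rcor2, a corepressor, was at 45.1, 55.2 and 84.1 CPM in dFLEx, above the KP tumors, of which the higher was at 25.4 CPM (log2 difference 1.64, SE 0.64, adjusted p = 0.408).

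Receptors of VGF-derived peptides and of neurotrophins gave 0 calls in 7 genes. At an unadjusted p under 0.05, 1 was higher and 1 lower, beside 5.65% and 4.93% of all tested genes. Ngfr, the p75 neurotrophin receptor, was at 121, 201 and 602 CPM in dFLEx and 3.43 and 1.14 CPM in KP (log2 difference 7.06, SE 1.16, adjusted p = 0.0784). The groups did not overlap. Ngfr is also made by Schwann cells, whose 6 markers summed to 75.6, 93.7 and 71.1 CPM in dFLEx and 65.4 and 55.9 CPM in KP; 2 of the 6 stayed under 1 CPM in all tumors, and none was at 0 in all. Their part in the Ngfr level was not tested. C3ar1, a complement receptor that binds the VGF peptide TLQP-21 and is made by macrophages, was at 8.62, 15.3 and 18.1 CPM in dFLEx, below 43.0 and 37.3 CPM in KP (log2 difference -1.52, SE 0.59, adjusted p = 0.408). The 6 macrophage markers summed to 551 to 750 CPM in dFLEx and 1218 and 4010 CPM in KP, and none was at 0 in all. For 4 of the 6, every dFLEx tumor was below both KP tumors, beside 11.7% of all tested genes. The part of these markers in the C3ar1 level was not tested. C1qbp, a mitochondrial protein that also binds a VGF peptide, overlapped between the groups (log2 difference 0.08, SE 0.53).

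Marker lists of the remaining cell types were read beside the members. Skeletal myocyte markers summed to 5800, 23490 and 7417 CPM in dFLEx and 1285 and 3004 CPM in KP. They were highest in 170024, the tumor with the highest dFLEx level of Cpe, Chga, Chgb and Scg3. Of these genes, Chgb and Scg3 were not called among the dFLEx tumors (edgeR, adjusted p = 0.512 and 0.776). Fibroblast markers summed to 1667 to 5652 CPM in dFLEx and 841 and 1162 CPM in KP, and endothelial markers to 293 to 518 and to 142 and 186 CPM. Mast cell markers were between 34.9 and 90.9 CPM in the 5 tumors, and T and B cell markers between 3.92 and 6.53 CPM except in 3802, at 52.9 CPM. In these lists of 6 genes each, none was at 0 in all tumors, and their part in the levels of the 10 genes was not tested.

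Genes whose pattern across the 5 tumors was most like that of Vgf were found by the Euclidean distance between centred profiles of log2(CPM + 0.5), over the 15259 other genes whose mean reached 1 CPM. The nearest were Cytl1, a cytokine-like secreted protein of cartilage (distance 1.08, Pearson r = 0.998), and Muc5ac, a gel-forming mucin (1.16, r = 0.997), followed by Spx (2.11, r = 0.995), Gpc3 (3.48, r = 0.993) and Col2a1 (3.51, r = 0.985). Spx, the precursor of the peptide spexin, was at 886, 1876 and 2561 CPM in dFLEx and 1.10 and 1.62 CPM in KP. Each of these 5 genes separated the groups, as the measure favours, and the correlations are a description over 5 tumors that share libraries and scaling. In 3800 they stood at 0.0244% to 0.114% of their dFLEx mean level and in 3802 at 0.0523% to 0.374%, beside 0.0213% and 0.0567% for Vgf. None had an octamer or the cAMP response element in its promoter window.

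Of the 4 other members whose mean reached 1 CPM, the nearest was Pcsk1n, at a distance of 12.2, with 5335 genes nearer to Vgf. Scg3 followed at 12.5, Chga at 12.7 and Cpe at 14.4, with Pearson r between -0.65 (Cpe) and 0.25 (Pcsk1n).

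**Figure D5:**
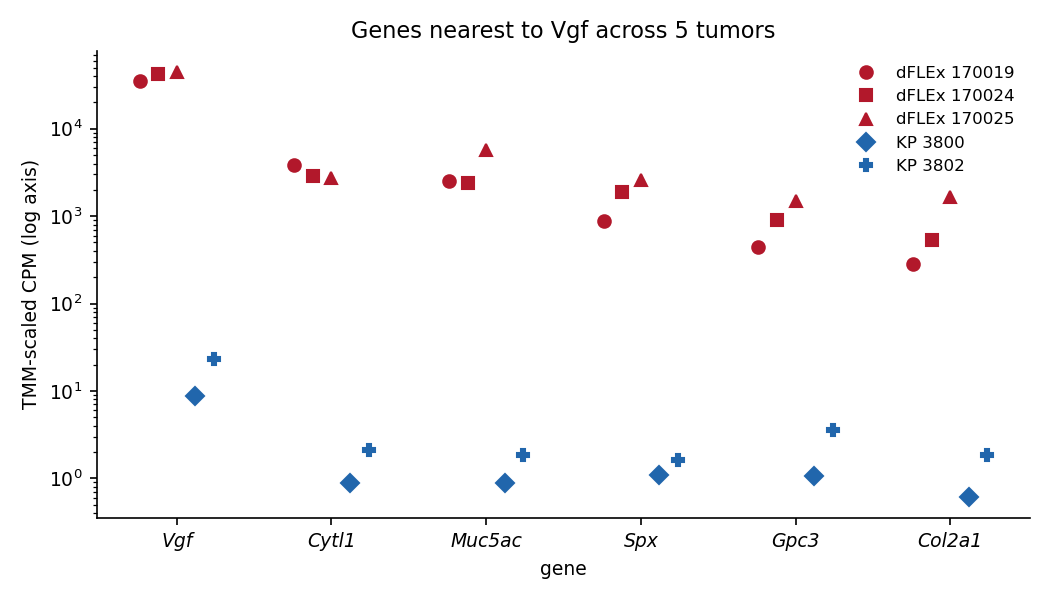
TMM-scaled CPM on a log axis in each tumor for Vgf and the 5 genes nearest to it over the 5 tumors, dFLEx in red and KP in blue. In KP the 5 genes lie between 0.617 and 3.53 CPM, below Vgf at 8.64 and 23.0 CPM.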

How the data were processed

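RNA-seq of 9 libraries from 5 tumors was used (10 were labelled). The authors trimmed reads with Trimmomatic 0.39, aligned them with STAR 2.7.10a to mm39 extended by the fusion construct, and deposited raw counts per gene made with featureCounts 2.0.3, per the file headers and the submitters' processing notes. Each mate was counted as a read, strand was ignored, and reads with several alignments or over several genes were not counted, so pairs enter the totals as 2 reads and true counting error exceeds the nominal one. Reads are not independent molecules, and intervals and limits cover counting error only. A count of 3, the limit used for 0 counts, was 0.0648 to 0.146 CPM in a library by its raw total, without TMM. The deposited table's exon length was used for CPM per kilobase.

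Symbols and transcript starts were taken from GENCODE M39 and promoter sequences from GRCm39. Counts of duplicates were summed per tumor, because the labels describe them as 1 RNA that was divided. Groups were compared with edgeR 4.0.16 (filterByExpr, TMM, glmQLFit, glmQLFTest, Benjamini-Hochberg, threshold 0.05), and tumors of a group with a coefficient per tumor over the 9 libraries. Scripts were tested on simulated data. DESeq2 1.42.0, other scalings, filters, library-level fits and left-out tumors were alternatives. SE was the log2 difference divided by the root of F. Named pathway genes were those past the threshold in a list, otherwise the 3 of highest mean CPM and the 1 of largest difference with a mean of at least 1 CPM. Rest and the neuroendocrine factors were named after their values were seen. Some items of the labels and lists are not reported here. The members and the gene lists were chosen with earlier results of these data known.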

Additional observations from a re-analysis of the deposited data

How the results depend on the processing

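The fit of dFLEx against KP called 45 of all genes (25 higher, 20 lower, 2618 at an unadjusted p under 0.05) and 1 of the further pathway genes. With library totals in place of TMM these were 34 (14 higher) and 0 (1396 and 22 with DESeq2 on tumor sums), with upper quartile 50 (17 higher) and 2, and without the filter 880 and 14. With libraries as independent samples the counts were 3344 and 31 in edgeR and 4828 and 38 in DESeq2, where duplicates of a tumor count as replicates. With the duplicate number as a replicate block they were 2476 and 28; the numbers did not pair the tumors, since correlations of the duplicate differences between tumors ran from -0.02 to 0.10 over 15260 genes. Leaving out each tumor gave 0 to 414 genes and 0 to 5 pathway genes, the highest without 3802, with 9 genes without 170025 and 8 without 3800, and with 18 to 33 pathway genes at an unadjusted p under 0.05; without 3800 or 3802 the lone KP tumor was assumed to vary like the dFLEx tumors. The median over all genes was -0.18 with TMM, -0.46 with library totals and 0.34 without 3802. Signs of the differences of Vgf, Scg5, Pcsk1, Pcsk2, Cpe and Pcsk1n held in the 15 alternatives, and those of Chga, Chgb, Scg2 and Scg3 turned in at least 1. Leaving Vgf out of the totals gave 45 genes again. Among tumors of a group, the counts of all genes stayed within 1.5 times, and the block lost 1 of the members called between KP tumors, Chgb.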
